A study of Mus musculus with 502 samples.

Results

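Silencers on the arms of chromosome 17 were taken from 3 deposited lists, 1 for each human cell line: K562 (chronic myeloid leukaemia with erythroid features), LNCap (androgen-responsive prostate cancer) and 293T (embryonic kidney cells that carry the SV40 large T antigen). Members were chosen by the authors' calls and their position, with the midpoint between 1.0 and 22.7 Mb (short arm, 21.7 Mb long) or 27.4 and 82.2 Mb (long arm, 54.8 Mb long) on hg38. The lists held 13435 such silencers among 397136 in all (3.38%). The 293T list had 1112 on the short arm and 2402 on the long arm, the K562 list 1661 and 3108, and the LNCap list 1652 and 3500. Chromosome 17 itself had been picked for its low share of the 293T list, so values of that share are descriptions.

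The calls come from Ss-STARR-seq, in which sheared genomic DNA is cloned into a reporter plasmid and each fragment's RNA output is compared with its DNA input. The labels list 461 output libraries over the lines, 180 of them K562. LNCap had nearly as many output libraries as K562, and 293T had the fewest, well below both. The labels also list 41 input DNA libraries, 40 of LNCap and 1 of 293T. Input of K562 was not analysed here. Whether the smaller number of 293T libraries bears on the 293T values below was not tested. No treatment or genotype beyond the cell line is given for any of the 5 groups, and all libraries carry mouse as organism although lines and build are human. Each line is represented by 1 pooled list without replicates or read counts, so depth is unknown, no p-value is given, and the 95% intervals cover counting error only.

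Silencers are DNA elements that lower transcription from a linked promoter, commonly by recruiting repressor proteins and their chromatin-modifying partners. In a reporter assay they are read outside their native chromatin, so the signal reflects what the sequence does in the plasmid. Chromosome 17 is one of the gene-dense human chromosomes: its short arm carries the myelin gene PMP22 and the corepressor NCOR1, and its long arm the tumour suppressors NF1 and BRCA1, the receptor kinase ERBB2, the HOXB developmental regulators and the type I keratin cluster. Loci are named below by the whole megabase in which they are known to lie, since the lists name no genes and no human annotation was used here.

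The short arm was denser in silencers than the long arm in all 3 lists. In 293T the short arm held 51.2 silencers per Mb (95% exact Poisson interval 48.3 to 54.3) and the long arm 43.8 (42.1 to 45.6). In K562 the values were 76.5 (72.9 to 80.3) and 56.7 (54.7 to 58.7), and in LNCap 76.1 (72.5 to 79.9) and 63.9 (61.8 to 66.02). No pair of arm intervals overlapped within a list. The long arm thus had 0.855 times the short arm's density in 293T (exact interval 0.796 to 0.919), 0.741 times in K562 (0.698 to 0.787) and 0.839 times in LNCap (0.791 to 0.890). The K562 interval overlaps neither of the others, which did not hold under every alternative. With silencers within 500 bp merged it was 0.719 to 0.820, which overlaps 0.791 to 0.925 in 293T and 0.804 to 0.915 in LNCap, and above the median score the intervals overlapped as well. With the whole chromosome it was 0.788 to 0.886, which overlaps 0.884 to 0.993 in LNCap. The whole autosomal genome held 41.5 silencers per Mb in 293T, 44.7 in K562 and 45.8 in LNCap, below both arms in each list. The autosomal span includes centromeres, which the arm limits leave out, so these densities are not strictly alike. Taken whole, chromosome 17 held 43.9 silencers per Mb in 293T, rank 9 from the densest of 22 autosomes. It held 59.8 in K562 and 64.1 in LNCap, rank 2 in both. Part of the long arm was almost empty (described below). Without its 3 sparse megabases the ratio was 0.903, 0.781 and 0.884 in 293T, K562 and LNCap, still below 1. With the whole chromosome taken on either side of the centromeric gap, the 293T ratio was 0.962, with an interval of 0.897 to 1.03 that includes 1.

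**Figure D1:**
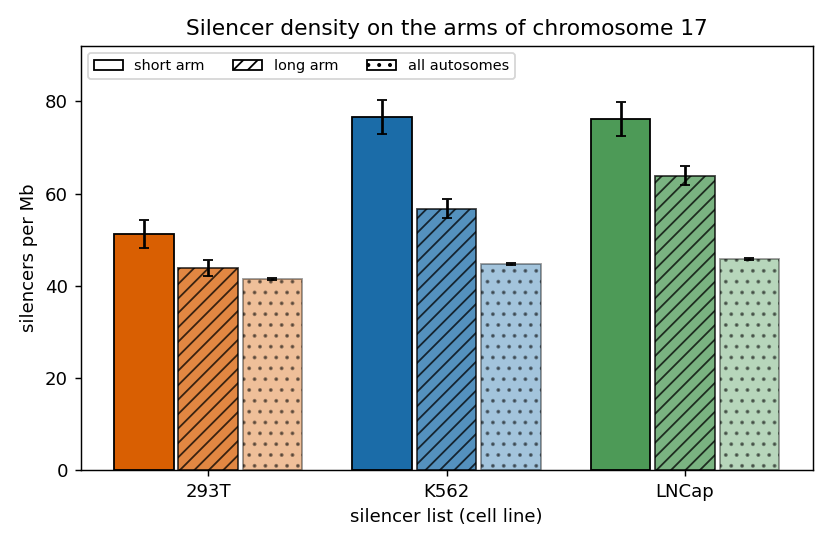
Silencers per Mb (vertical axis) on the short arm, the long arm and all autosomes in each list, with bars from 0 and 95% exact Poisson intervals as error bars. In each list the short arm stands highest, from 51.2 per Mb in 293T to 76.5 in K562, and the autosomes lowest. The autosomal span includes centromeres, which the arms leave out.

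The silencers took up little of either arm. They covered 91.5 kb of the short arm in 293T (0.422%), 161.4 kb in K562 (0.744%) and 153.3 kb in LNCap (0.706%). On the long arm they covered 202 kb (0.368%), 300.1 kb (0.548%) and 348 kb (0.635%). The 293T list covered the least sequence on both arms, as it did over the autosomes (0.345%, against 0.411% in K562 and 0.418% in LNCap).

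The 293T list placed the smallest share of its silencers on both arms. Relative to the mean share of the other lists, 293T stood at 0.728 on the short arm (interval 0.681 to 0.780) and 0.790 on the long arm (0.754 to 0.827). K562 stood at 1.19 (1.12 to 1.26) and 1.04 (0.995 to 1.09), and LNCap at 1.13 (1.06 to 1.20) and 1.20 (1.15 to 1.25). The mean against which K562 and LNCap were set includes the low 293T share, so their values above 1 are partly fixed by it. Set directly against K562, the LNCap share was 0.969 times that of K562 on the short arm (0.905 to 1.04) and 1.10 times on the long arm (1.05 to 1.15). LNCap thus exceeded K562 on the long arm, and the short arm interval includes 1. Among the 21 other autosomes the 293T share ran from 0.696 to 1.14 times the mean of the other lists. Chromosome 17 as a whole stood at 0.770, rank 3 from the lowest, after chromosomes 19 (0.696) and 22 (0.701).

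The shortfall of 293T was uneven along the arms. The arms were divided into 8 segments of 7 to 11.2 Mb, a division made after the bins had been seen. The outer end of the short arm, from 1.0 to 8 Mb, held 45.7 silencers per Mb in 293T, 81.1 in K562 and 91.7 in LNCap, a 293T share of 0.574 times the mean of the others (0.508 to 0.650). Towards the centromere the 293T share rose to 0.777 (0.688 to 0.878) from 8 to 15 Mb and 0.852 (0.763 to 0.951) from 15 to 22.7 Mb. The outermost segment of the long arm, from 71 to 82.2 Mb, resembled the outer short arm with 33.4, 54.02 and 68.3 silencers per Mb and a 293T share of 0.593 (0.529 to 0.665). The 4 inner segments of the long arm lay higher, at 0.833, 0.747, 0.879 and 0.912. The lowest 293T shares were thus at the outer ends of both arms, where intervals did not overlap those of any inner segment. LNCap stood at 1.37 and 1.48 times the mean of the others in these segments, a mean that includes 293T. Against K562 alone, LNCap stood at 1.10 (0.984 to 1.23) from 1.0 to 8 Mb and 1.23 (1.11 to 1.37) from 71 to 82.2 Mb. It stood at 1.17 (1.05 to 1.30) from 60 to 71 Mb and 0.867 (0.772 to 0.975) from 15 to 22.7 Mb, the lowest of the 8 segments. These direct ratios were added after the values were seen.

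**Figure D2:**
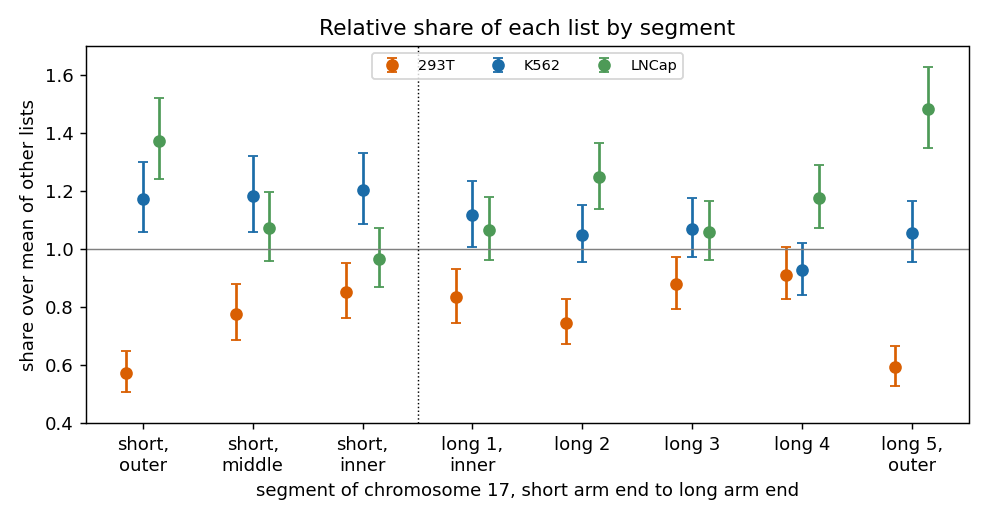
Share of each list in 8 segments of chromosome 17 over the mean share of the other lists (vertical axis), ordered from the outer end of the short arm to the outer end of the long arm; error bars are 95% log-normal intervals for counting error, and the dotted line parts the arms. 293T is lowest in the outer segments (0.574 and 0.593), where the LNCap value, whose reference includes 293T, is highest (1.37 and 1.48).

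The shares were also read in whole megabases. Of the 75 whole bins of 1 Mb on the arms, 72 held at least 20 silencers over the lists. The 293T share was under 1 in 60 of these, 83.3%, against 46.4% of all such bins in the genome, which follows from how the chromosome was picked. It was under 0.5 times the mean of the others in 4 bins (5.56%, against 1.75% genome-wide) and over 2 times in 0 (1.93% genome-wide). On the short arm these were the bin from 4 to 5 Mb, with 4.2 silencers per 100 kb in 293T, 10.2 in K562 and 11.2 in LNCap (a 293T share of 0.426), and the bin from 7 to 8 Mb, with 4.4, 9.8 and 12.4 (0.431). On the long arm they were the bin from 73 to 74 Mb, with 2.6, 4.7 and 6.7 (0.496), and the outermost whole bin, 81 to 82 Mb, with 1.7, 4.9 and 6.2 (0.333). Just outside the limit were the bins from 75 to 76 Mb (0.5002) and 14 to 15 Mb (0.503). LNCap exceeded 2 times the mean of the others in 1 bin, from 80 to 81 Mb, with 6.6 silencers per 100 kb against 2.4 in 293T and 3.6 in K562 (2.08 times a mean that includes 293T; 0.140% of bins genome-wide exceed it in LNCap). K562 passed neither limit in any bin (0.210% over and 0.350% under genome-wide), and LNCap was under 0.5 times in 0 (1.44% genome-wide).

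The fullest megabases of the short arm differed between 293T and the other lists. In 293T they were those starting at 20 Mb (7.9 silencers per 100 kb), 16 Mb (6.5), 2 and 15 Mb (6.3 each) and 18 Mb (6). In K562 they started at 21 Mb (11.4), 4 Mb (10.2), 7 Mb (9.8), 5 Mb (9.3) and 2 Mb (9.2), and in LNCap at 7 Mb (12.4), 2 Mb (11.9), 4 Mb (11.2), 9 Mb (9.8) and 8 Mb (9.3). The bins at 2, 4 and 7 Mb were thus among the 5 fullest in both K562 and LNCap, and that at 2 Mb was among them in all 3 lists. The emptiest started at 14, 17 and 1 Mb in 293T (2.9, 3.2 and 3.3 per 100 kb), at 1, 19 and 13 Mb in K562 (4.4, 5.5 and 5.8) and at 1, 12 and 13 Mb in LNCap (4.9, 4.9 and 5).

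On the long arm the fullest megabase was that from 75 to 76 Mb in both K562 (11.4 per 100 kb) and LNCap (13.8), while 293T had 5.8 there. In 293T the fullest started at 59 Mb (8.7), 47 Mb (7.9), 31 Mb (7.7), 30 Mb (7.3) and 67 Mb (6.8). After 75 Mb, K562 was fullest at 62 Mb (10.6), 30 Mb (10.3), 49 Mb (10) and 39 Mb (9.6). LNCap had 10.2 each at 30, 42 and 59 Mb, and 10.1 each at 39 and 67 Mb. The megabase at 30 Mb was the 1 bin among the fullest of the long arm in all 3 lists. Over the 54 long arm bins the counts of K562 and LNCap had a Spearman correlation of 0.91, against 0.78 and 0.81 when 293T was set against K562 or LNCap. Over the 21 short arm bins the values were 0.78, 0.40 and 0.33. They were 0.82, 0.65 and 0.58 over 2915 bins of all chromosomes but Y. The bins share mapping and base composition between lists, so these correlations are descriptions, and the 3 sparse bins enter those of the long arm.

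Those sparse stretches lay at the same places in all 3 lists. The megabase from 36 to 37 Mb held 3 from the 293T list, 2 from K562 and 4 from LNCap, that from 37 to 38 Mb held 0, 4 and 2, and that from 46 to 47 Mb held 2, 7 and 7. Medians over the long arm bins were 46, 50.5 and 66.5 silencers per megabase. The longest stretches free of any listed silencer ran from 37821051 to 38845185 (1024 kb), from 45308901 to 46292101 (983 kb) and from 35971751 to 36704801 (733 kb), against a median free stretch of 3.09 kb. The stretch near 46 Mb carries MAPT, which encodes the microtubule protein tau; MAPT was added after the stretch was seen. On the short arm the longest free stretch was 218 kb (19025251 to 19243502) and 5 exceeded 100 kb (0.230 per Mb), against 15 on the longer long arm (0.274 per Mb). How uniquely reads map in these stretches was not examined.

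**Figure D3:**
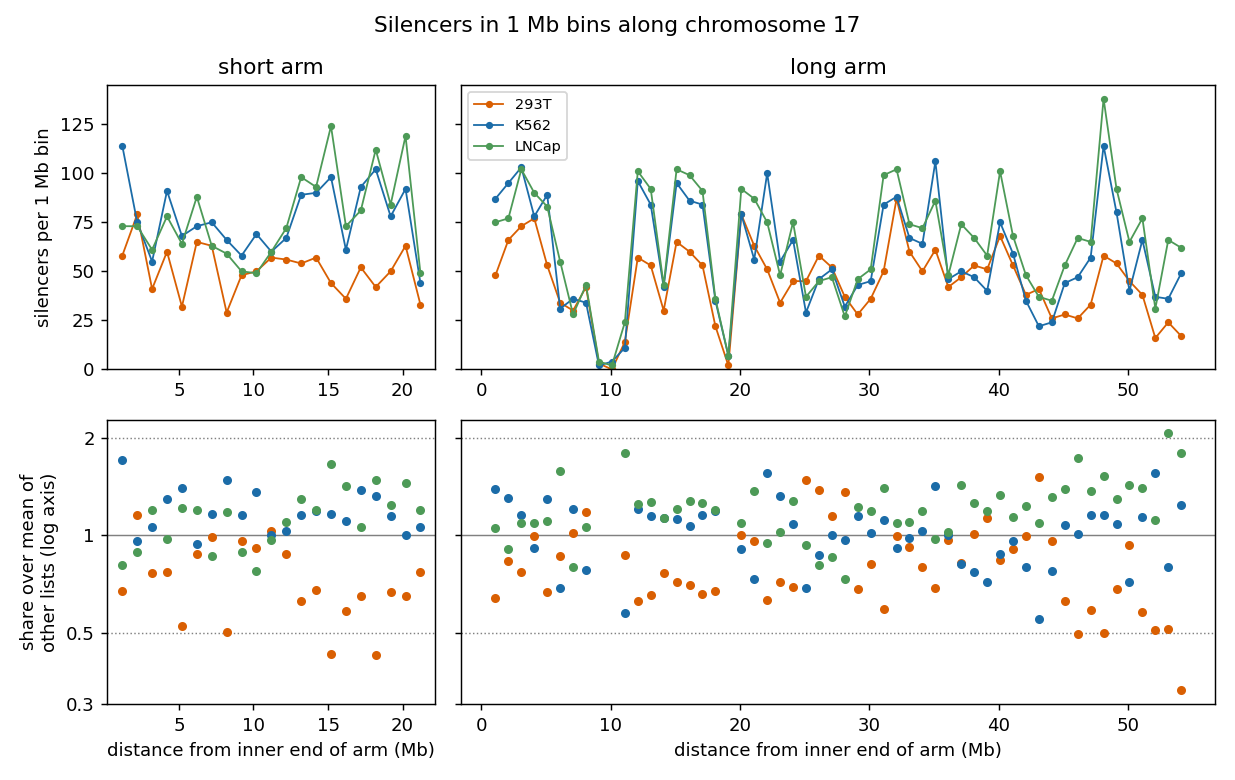
Silencers per 1 Mb bin (upper panels) and share of each list over the mean of the other lists (lower panels, log axis, bins of at least 20 silencers, dotted lines at 0.5 and 2) against distance from the arm's inner end in Mb. All 3 lists fall to 7 silencers or fewer in the same 3 long arm bins, and most 293T points lie under 1.

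Well-studied loci on the short arm differed in how many silencers their megabase held. The megabase of YWHAE, a 14-3-3 signalling adaptor, held 3.3 silencers per 100 kb in 293T, 4.4 in K562 and 4.9 in LNCap, among the 3 emptiest of the arm in every list. The olfactory receptor cluster, a set of odorant receptor genes, lay in a megabase with 5, 7.8 and 8.4. The megabase of the skeletal myosin heavy chain cluster (MYH genes, motor proteins of muscle) had 5.6, 6.7 and 7.2, and that of PMP22, a myelin protein gene, 6.3, 7.5 and 6.3. These lay nearer the middle of the arm's range in K562 and LNCap. The megabase of NCOR1, a nuclear receptor corepressor that recruits histone deacetylases, held 6.5, 7.3 and 8.8, and that of RAI1, a regulator whose loss gives Smith-Magenis syndrome, 3.2, 6.8 and 6.4. Among these 6 loci 293T came closest to the other lists around PMP22 (0.990 times their mean) and lay furthest below them around RAI1 (0.526).

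On the long arm the megabases from 39 to 45 Mb formed a full block apart from 1 keratin megabase. ERBB2, the growth factor receptor amplified in breast cancers, lay in a megabase with 5.7 silencers per 100 kb in 293T, 9.6 in K562 and 10.1 in LNCap. RARA, the retinoic acid receptor fused in acute promyelocytic leukaemia, shared its megabase with the first keratin genes, and this held 5.3, 8.4 and 9.2. The next megabase, with further type I keratin genes of epithelia and hair, held 3, 4.2 and 4.3 and was the emptiest of the block in each list. STAT3, STAT5A and STAT5B, transcription factors of cytokine signalling, lay in a megabase with 6.5, 9.5 and 10.2, and the DNA repair gene BRCA1 in one with 6, 8.6 and 9.9. The megabase of SLC4A1, the red cell anion exchanger, and ITGA2B, the platelet integrin, held 5.3, 8.4 and 9.1. In these 6 megabases the 293T share lay between 0.628 and 0.766 times the mean of the others.

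Other loci of the long arm differed in how far the lists lay apart. The megabase of NF1, a negative regulator of RAS, held 7.7, 7.8 and 9 silencers per 100 kb in 293T, K562 and LNCap, a 293T share of 0.996. That of the CCL2 chemokine group, attractants of monocytes, held 3, 3.6 and 2.8, and that of the growth hormone genes GH1 and CSH1 held 4.2, 4.6 and 4.8. These gave 293T shares of 1.02 and 0.970. The HOXB cluster, which patterns the body axis, lay in a megabase with 6.3, 5.6 and 8.7, where K562 stood at 0.736 times the mean of the others and LNCap at 1.37. The next megabase, with the ubiquitin ligase adaptor SPOP, was the reverse for K562, with 5.1, 10 and 7.5 (1.57 times for K562). The megabase of the ABCA lipid transporter genes held 3.8, 3.5 and 4.8. The gene desert before SOX9, a regulator of cartilage and testis development, held 4.1, 2.2 and 3.7 in its first megabase, where the 293T share of 1.51 was the highest of the arm, and 2.6, 2.4 and 3.5 in the next. In these loci the count per megabase was read, not the distance of any silencer to a gene.

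Individual silencers were short on both arms. The median width was 50 bp on each arm in each list. A width of exactly 50 bp was found for 65.1% of short arm and 64.03% of long arm silencers in 293T (64.5% of the list), 59.1% and 59.01% in K562 (58.7% of the list), and 61.02% and 58.03% in LNCap (60.6% of the list). The long arm share minus the short arm share in LNCap was -2.99 points (Newcombe interval -5.83 to -0.111), while the intervals of the other lists include 0. Silencers over 300 bp made up 2.89% and 3.02% of the short and the long arm in K562 (2.31% of its autosomal silencers), 2.54% and 3.14% in LNCap (2.27%), and 1.17% and 1.21% in 293T (1.40%). The widest were 895 bp in K562, on the short arm, 750 bp in LNCap, on the long arm, and 600 bp in 293T, on each arm.

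The median of the authors' activity score was 2.3 on the short arm in all 3 lists, and on the long arm 2.3 in 293T and 2.2 in K562 and LNCap. Its scale is unknown, so the size of scores was not compared between lists. Sums of scores were used below only as a rule for naming regions, and scores of overlapping pairs were correlated by rank only. Scores of 4 or above were held by 33 short arm and 58 long arm silencers in 293T (2.97% and 2.41%, against 2.71% of the list), 33 and 52 in K562 (1.99% and 1.67%, against 1.56%) and 53 and 61 in LNCap (3.21% and 1.74%, against 2.17%). In LNCap the long arm share of high scores minus that of the short arm was -1.46 points (-2.503 to -0.572). The short arm share of LNCap, with a Wilson interval of 2.46 to 4.17, also lay above that of its list. In 293T and K562 the difference between arms was -0.553 and -0.314 points, with intervals that include 0.

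The highest scores marked single short windows, and 6 of the 18 silencers named by the ranking (3 per list and arm) overlapped another list's silencer. In 293T the top silencer of the long arm, at 44442069 to 44442119, scored 10.4 and lay in the megabase of SLC4A1 and ITGA2B, 1162 bp from the nearest silencer of another list. The next on that arm scored 7.1 (40251000 to 40251059) and 6.0 (50206700 to 50206776). On the short arm the 293T scores were 8.3 (15088550 to 15088603, the PMP22 megabase), 6.5 (3415551 to 3415601, the olfactory receptor megabase) and 5.6 (18805401 to 18805451). None of these 6 silencers of 293T overlapped K562 or LNCap, where 10.1% of all 293T silencers on the arms did.

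In K562 the highest long arm scores were 7.7 (71411749 to 71411800, in the desert before SOX9), which overlapped LNCap, 6.4 (61270083 to 61270133), which overlapped 293T, and 6.0 (66532301 to 66532351), which overlapped neither. On the short arm they were 5.9 (12699899 to 12699949), 5.7 (9255457 to 9255557) and 5.1 (17294763 to 17294863, the RAI1 megabase), all without overlap. In LNCap the short arm was led by 7.0 (4364400 to 4364501) and 5.9 (2255251 to 2255301), both overlapping K562, and by 5.9 (22580621 to 22580671), 110 bp from another list's silencer. The long arm of LNCap was led by 7.9 (58419250 to 58419301), which overlapped K562, and 7.3 (77057251 to 77057301), which overlapped none. The next, 7.2 (48825085 to 48825181), lay in the HOXB megabase and overlapped both other lists. In all, 4 of the 6 named LNCap silencers and 2 of the 6 named K562 silencers overlapped another list, against 19.8% and 21.2% of all their silencers on the arms; with 6 per list, no order of the lists was read from these counts.

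Neighbouring silencers often lay close together. Gaps of up to 500 bp separated 15.8% of short arm and 15.9% of long arm neighbours in 293T (13.8% in the whole list), 17.2% and 14.2% in K562 (13.3%) and 17.3% and 15.4% in LNCap (14.4%). The median gap was 11236 bp and 10644 bp in 293T, 6575 bp and 8500 bp in K562, and 6890 bp and 7809 bp in LNCap. Between lists, the shorter gaps of K562 and LNCap went with their higher density. Within 293T, however, the denser short arm had the longer median gap, and the part of density was not tested. Runs of at least 3 silencers within 500 bp of each other numbered 25 and 43 in 293T, 36 and 56 in K562, and 37 and 67 in LNCap, on the short and the long arm. Per merged region these are 2.67% and 2.13% in 293T (1.64% over the autosomes), 2.62% and 2.0997% in K562 (1.65%), and 2.71% and 2.26% in LNCap (1.87%). The longest runs, chosen after their values were seen, held 6 silencers in LNCap (39188107 to 39190041, in the ERBB2 megabase), 5 in K562 (21868851 to 21870451) and 5 in 293T (59817951 to 59819351). Within the span of the LNCap run lay 1 silencer of each other list, and within the other runs none.

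Cell line specificity was the question behind the comparison of lists, and on both arms most silencers were found in 1 list. How far repeat lists of the same line would overlap is unknown, as each line has 1 list. Silencers found in 1 list are thus not shown to be specific to its line. Of 293T silencers, 5.04% on the short arm (56 of 1112, Wilson interval 3.898 to 6.48) and 5.70% on the long arm (4.84 to 6.70) overlapped a K562 silencer, against 3.30% of the whole list. With LNCap the shares were 6.74% (5.41 to 8.37) and 6.58% (5.65 to 7.64), against 3.58%. K562 silencers overlapped LNCap in 17.3% of short arm cases (287 of 1661, 15.5 to 19.2) and 19.4% of long arm cases (602 of 3108, 18.02 to 20.8), against 15.7% of the list. In the other direction, LNCap silencers overlapped K562 in 17.3% and 16.8%, against 15.4%. K562 and LNCap thus shared most on each arm, with intervals far above those of the pairs with 293T. K562 silencers overlapped 293T in 3.19% of short arm and 4.31% of long arm cases (3.03% of the list), and LNCap silencers overlapped 293T in 4.30% and 4.29% (3.23%).

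The arms did not differ detectably in sharing for any ordered pair of lists. The long arm share minus the short arm share ranged from 2.09 points for K562 in LNCap (Newcombe interval -0.235 to 4.34) to -0.541 points for LNCap in K562 (-2.79 to 1.62). With any other list counted, K562 silencers were shared more on the long arm (22.3%) than on the short arm (19.2%; difference 3.06 points, interval 0.631 to 5.42; 17.9% of the list). For 293T these shares were 9.62% and 10.3% (6.09% of the list), and for LNCap 20.0% and 19.7% (17.8% of the list), with intervals of the difference that include 0. Both other lists were overlapped by 72 of the 293T silencers (2.05%, against 0.787% of the list), 65 of K562 (1.36%, against 0.804%) and 76 of LNCap (1.48%, against 0.794%).

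With both arms pooled, sharing was above the rest of each list. For 293T in K562 the arms exceeded the rest by 2.26 points (1.55 to 3.07) and for 293T in LNCap by 3.14 points (2.35 to 4.01). For K562 in LNCap the excess was 3.04 points (1.94 to 4.19), and for LNCap in K562 1.66 points (0.637 to 2.72). The other lists were also denser here than over the autosomes, which raises the number of overlaps that placement alone would give; the part of density in the excess was not tested. Other autosomes reached similar shares: for 293T in K562 the arms ranked above 20 of the 21 other autosomes, whose shares ran from 2.46% to 6.397%, and for K562 in LNCap above 19, whose shares ran from 13.9% to 20.7%.

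**Figure D4:**
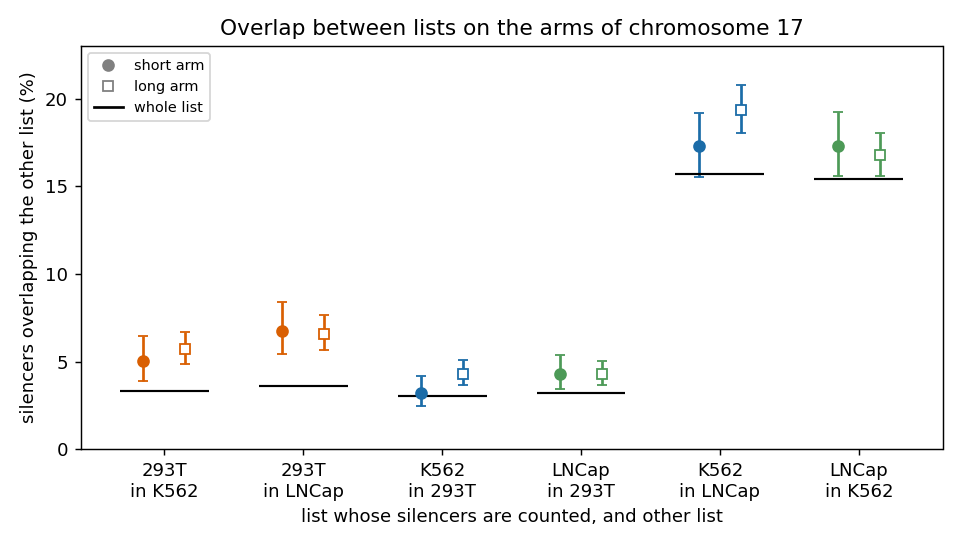
Percent of silencers in 1 list that overlap another list by at least 1 bp (vertical axis), on the short arm (filled circles) and long arm (open squares), with 95% Wilson intervals; black lines mark the whole list. K562 and LNCap share 16.8% to 19.4% on the arms, and the pairs with 293T 3.19% to 6.74%.

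Sharing also varied along the arms. In 293T the share that overlapped any other list was highest from 38 to 49 Mb (14.5%, 11.6 to 17.8), from 71 to 82.2 Mb (13.6%, 10.5 to 17.5) and from 1.0 to 8 Mb (12.2%, 9.04 to 16.2). It was 7.45% to 9.40% in the other 5 segments. The intervals of the 3 highest segments each overlap that from 8 to 15 Mb (6.77 to 12.9). The 3 segments with the highest sharing were the 3 with the lowest 293T shares (0.747, 0.593 and 0.574). LNCap held 70.4, 68.3 and 91.7 silencers per Mb there, and 54.3 to 68.7 in the other 5. K562 held 61.4, 54.02 and 81.1 there, and 54.5 to 77.1 in the other 5. In K562 sharing was likewise highest from 38 to 49 Mb (25.9%, 22.8 to 29.4) and lowest from 8 to 15 Mb (16.2%, 13.3 to 19.7), intervals that do not overlap. LNCap ranged from 18.01% to 21.6%, and the intervals of these segments overlap.

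Pooled over both arms, the highest-scoring silencers were shared more often than the lowest-scoring beyond counting error for 4 of the 6 ordered pairs of lists. Shares by score class were computed on the arms only, so whether the whole lists show the same is not known here. Over both arms, K562 silencers with scores of 2.0 to 2.1 overlapped LNCap in 16.03% of cases (14.4 to 17.8), and those of 4 and above in 35.3% (30 of 85, 25.97 to 45.9). LNCap silencers overlapped K562 in 11.7% (10.3 to 13.2) of the lowest and 31.6% (23.8 to 40.6) of the highest class. For 293T in LNCap the share went from 4.62% (3.56 to 5.96) to 11.0% (10 of 91, 6.08 to 19.1). For LNCap in 293T it went from 3.35% (2.63 to 4.27) to 8.77% (4.83 to 15.4). On the long arm alone it went from 3.32% (2.48 to 4.42) to 13.1% (8 of 61, 6.80 to 23.8). The short arm values were 3.45% (2.22 to 5.32) and 3.77% (2 of 53, 1.04 to 12.8), whose intervals overlap. For 293T in LNCap the intervals of the end classes overlap on each arm alone. For K562 and LNCap, in both directions, they overlap on neither arm. Over both arms, the intervals of the classes at either end overlap for K562 in 293T, 3.25% and 5.88% (5 of 85, 2.54 to 13.04), and for 293T in K562, 4.62% and 8.79% (4.52 to 16.4).

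**Figure D5:**
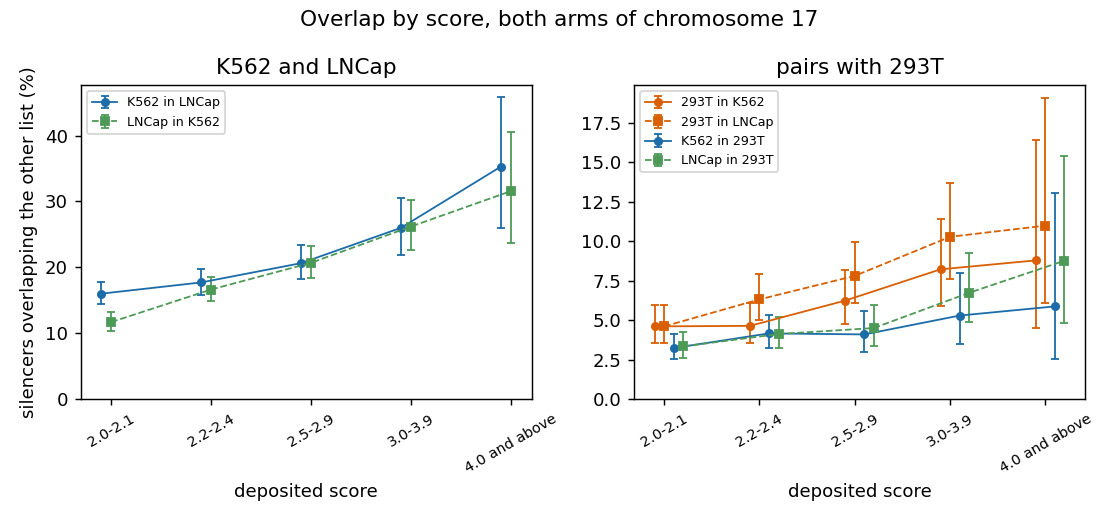
Percent of silencers on both arms that overlap the other list (vertical axis) by class of the deposited score (horizontal axis), for K562 and LNCap (left) and the pairs with 293T (right), with 95% Wilson intervals. The share goes from 16.03% to 35.3% for K562 in LNCap, and intervals are widest in the highest class.

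Width moved with sharing as well. Over both arms, K562 silencers overlapped LNCap in 13.7% of cases at 50 bp (12.5 to 15.0), 18.9% above 50 and up to 150 bp, and 40.4% above 150 bp (36.6 to 44.2). For LNCap in K562 the shares were 11.0%, 18.5% and 40.6%. In 293T they were 4.24% and 12.0% for K562, and 5.08% and 12.0% for LNCap, at 50 bp and above 150 bp. On the short arm alone the intervals of these 293T classes overlap for K562 (3.03 to 6.01 and 3.28 to 14.6). They also overlap there for LNCap (3.61 to 6.81 and 5.67 to 18.9). On the long arm they overlap for neither (3.33 to 5.35 and 9.93 to 19.4 for K562, 4.14 to 6.36 and 8.72 to 17.8 for LNCap). A wider silencer meets the rule of 1 bp more easily, and the separate parts of width and score were not tested. Shares by width class were likewise computed on the arms only, without the whole lists beside them.

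After merging the lists, the short arm held 4011 regions and the long arm 8130. Regions held by K562 and LNCap alone were 6.03% of the short arm and 6.35% of the long arm, against 5.11% of all regions in the series. All 3 lists held 30 regions on the short arm (0.748%, 0.524 to 1.07) and 56 on the long arm (0.689%, 0.531 to 0.893), against 0.372% of all regions. That is 1.38 per Mb (0.933 to 1.97) and 1.02 per Mb (0.772 to 1.33), intervals that overlap.

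The regions of all 3 lists, each the union of at least 3 silencers and so wider by construction, had median widths of 254.5 bp and 293.5 bp. They were spread over 17 megabases of the short arm and 32 of the long arm. The megabase from 2 to 3 Mb held 7 of the 30 on the short arm, more than any other bin. On the long arm the megabases at 28 and 75 Mb held 4 each. By summed score the first on the short arm ran from 1768197 to 1768501, with scores of 4.5 in 293T, 4.7 in K562 and 2.9 in LNCap. It was followed by 4826501 to 4827083 (2.4, 4.5 and 2.8) and 4767023 to 4767401 (4.6, 2.6 and 2.4). On the long arm they ran from 45178601 to 45178801 (3.5, 4.2 and 3.8), from 39261801 to 39261951 (4.2, 2.3 and 4.9), in the ERBB2 megabase, and from 48824461 to 48825250 (2.1, 2.1 and 7.2), in the HOXB megabase.

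Scores just inside and just outside the arm limits, read in K562, ran from 2.0 to 2.4. The nearest K562 silencers inside and outside the lower end of the short arm started at 1199066 (score 2.4) and 956501 (2.3), and those at its upper end at 22678900 (2.0) and 22712801 (2.3). At the lower end of the long arm they started at 27463101 (2.0) and 27388001 (2.0), and at its upper end at 82198946 (2.3) and 82202428 (2.3).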

How the data were processed

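Per the file headers, a list line holds a position on hg38 and an activity value. Activity is a score assigned by the authors and deposited to 1 decimal; no score is below 2, and its scale is not stated. Bowtie2, SAMtools and hg38 are named in the submitters' processing notes; no source used here gives the silencer caller or the way libraries were pooled. Lines that were cut, run together, on an unknown chromosome, with an end not above the start or wider than 5000 bp were dropped (58 in 293T, 12 in K562, 25 in LNCap). The 1 infinite score of a LNCap member was kept for position and left out of score summaries. Positions are those deposited; the first base of a chromosome may be 0 or 1 there.

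Overlap meant at least 1 bp in common. Relative share is a list's share on a stretch over the mean share of the other lists, with a log-normal interval. Other intervals are exact Poisson, exact conditional binomial, Wilson or Newcombe, all at 95%; they treat silencers as independent. Score classes, width classes, segments, runs and empty stretches were chosen after values were seen. Bins of 1 Mb needed at least 20 silencers over the lists. Named were, per list and arm, the 5 fullest and 3 emptiest bins, every bin over 2 or under 0.5 times the others, the 3 highest finite scores, the 3 regions of all lists with the highest summed score per arm, and fixed loci, of which 3 are not reported here. Members, loci and lists were chosen with earlier results of these data known. Functions were tested on simulated data. Intervals came from scipy 1.17.1, tables from pandas 2.3.3 and numpy 2.4.6, figures from matplotlib 3.10.9, all under Python 3.11.15. No sequence is printed, as no human genome was used here.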

Additional observations from a re-analysis of the deposited data

Results flagged for a closer look

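Silencers of chromosome 17 outside the arm limits were listed but entered no comparison. The stretch around the centromere, from 22.7 to 27.4 Mb, held 1.996% of the 293T silencers of the chromosome, 2.349% of those of K562 and 1.462% of those of LNCap. Most of them, 93.2% in 293T and in K562 and 98.7% in LNCap, lay beyond 26 Mb. Overlap with another list was found for 12.3% of those from 293T (Wilson interval 6.62 to 21.8, against 6.09% of the list), 28.2% from K562 (20.8 to 36.95, against 17.9%) and 39.7% from LNCap (29.6 to 50.8, against 17.8%). The outermost stretches of both arms held 1.941% of the 293T list's silencers there, 1.888% of K562's and 1.987% of LNCap's. Both were noted because they hold calls that the arms leave out, with no control list to set beside them.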

How the results depend on the processing

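No paired analysis was possible because each line has 1 pooled list. The long to short arm density ratio stayed below 1 in each list under all 6 alternatives. Above the median score it was 0.677 in K562 and 0.765 in LNCap, and per Mb of occupied 100 kb bins 0.788 and 0.892. With the whole chromosome on either side of the centromeric gap it was 0.962 in 293T (0.897 to 1.03, an interval that includes 1), 0.836 in K562 and 0.937 in LNCap. The alternative without 3 sparse megabases was chosen after seeing the data. The 293T relative share ranged from 0.688 to 0.741 on the short arm and from 0.755 to 0.828 on the long arm, the last with K562 alone as reference. Overlap moved with its definition, and the values below are for the short and long arm in turn. The whole lists were not recounted under these alternatives, so the excess of the arms over the lists was read for the main rule only. With midpoints within 500 bp it was 17.3% and 15.1% for 293T in K562, 18.5% and 17.98% for 293T in LNCap, and 31.01% and 32.98% for K562 in LNCap. With at least 0.5 of the silencer covered it was 3.33% for 293T in K562 on the long arm, 4.68% and 4.25% for 293T in LNCap, and 11.1% and 13.03% for K562 in LNCap. Above the median score it was 6.76% and 8.11% for 293T in K562 and in LNCap on the long arm, and 21.3% and 21.4% for K562 in LNCap. After merging within 500 bp it was 7.17% for 293T in K562 on the long arm and 20.3% and 22.2% for K562 in LNCap. K562 and LNCap shared most under each of these 5 alternatives. In bins of 500 kb, 293T was under 0.5 times the others in 13.3% (19 bins; 4.48% genome-wide). LNCap exceeded 2 times in 4 bins of 500 kb (2.80%, against 0.785% genome-wide). In bins of 2 Mb it did so in 0, as over the whole genome (0%).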

Other observations

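Overlapping silencers of different lists seldom had the same ends. Of overlapping pairs of K562 and LNCap, 4.93% on the short arm (15 of 304) and 5.15% on the long arm (32 of 621) had the same start and end. With 293T the shares were 8.93% and 2.84% for K562, and 0% and 2.42% for LNCap. The scores of K562 and LNCap in overlapping pairs had a Spearman correlation of 0.42 on the short arm and 0.27 on the long arm. For 293T it was 0.30 and 0.06 with K562, and 0.01 and 0.24 with LNCap; pairs share sequence and window positions, so these are descriptions.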
